A study of Mus musculus with 12 samples.

Results

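The nuclear-encoded subunits of the mitochondrial respiratory chain and ATP synthase were described across 11 RNA-seq libraries of mouse calvarial osteoblast-like cells. Genes were taken by symbol: Nduf followed by a, b, c, s or v and a digit (complex I), Sdha to Sdhd (complex II), Uqcr (complex III), Cox4 to Cox8 (complex IV, cytochrome c oxidase) and Atp5 (ATP synthase). The symbols gave 85 of the 25511 entries of the gene table, under 84 symbols, since Ndufa13 has 2 entries. They divide into 38 entries for complex I, 4 for complex II, 8 for complex III, 18 for complex IV and 17 for ATP synthase. A filter on low counts kept 80 of them for testing. The 5 others were Ndufb4 (0 to 8 fragments per library), Atp5g2 (0 to 1), Cox7b2, Cox8b and Cox8c. The name is not a perfect guide to membership: Ndufa4 is now regarded as a subunit of complex IV, and Atp5s and Atp5sl (also called Dmac2) are not structural subunits of ATP synthase.

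The study asked what protease-activated receptor 2 (PAR2, gene F2rl1), a receptor that proteases switch on by cleavage, does in bone-forming cells that meet factors of a prostate cancer. Primary cells were freed with collagenase from the skull bones of neonatal C57Bl/6J mice, either wild type (WT) or labelled F2rl1 -/- (KO below), and precultured for 48 h. They were then kept for 4 days in BRFF-HPC1 medium with 20% serum, either unconditioned or first left for 48 h on cultures of the human prostate cancer line MDA-PCa-2b (conditioned). The groups were WT unconditioned (2 distinct libraries), WT conditioned, KO unconditioned and KO conditioned (3 libraries each). A sample of the unconditioned WT group is titled WT but carries the knockout label, and it was kept there by its title. Which library it gave is not known, so the WT baseline of the comparisons below may include cells that are KO by label. Whether the samples of a group came from separate animals is not stated, and the spread behind each p-value may therefore be technical.

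Complexes I and II pass electrons from NADH and succinate to ubiquinone, complex III passes them on to cytochrome c, and complex IV reduces oxygen. Complexes I, III and IV pump protons across the inner mitochondrial membrane, and ATP synthase uses their return to make ATP. Each complex has core subunits that carry redox centres or catalyse the reaction and accessory subunits that are needed for assembly and stability. Most are encoded in the nucleus, and the promoters of many of these genes have long been known to hold sites of the factors NRF1, GABP (an ETS factor) and YY1. Osteoblasts use both glycolysis and oxidative phosphorylation, in proportions that change as they mature.

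Promoter sequence is shown because these genes are known for shared promoter words. RefSeq promoter windows of 300 bases (250 before to 50 after the start, GRCm38.p6) matched 69 of the 84 symbols and gave 75 windows. Both strands were searched for 4 words. The YY1 word AAGATGGCG was in 9 of the 75 windows (12%), against 1.40% of all 32851 windows of that length. The NRF1 consensus palindrome, searched without mismatch, was in 5 (6.67%, against 0.971%), the ETS word CCGGAAGT in 5 (6.67%, against 3.89%) and CCAAT in 32 (42.7%, against 37.4%). A match describes these letters and is not a measured binding site; the YY1 word also contains ATG, and its relation to the start codon was not tested. The 9 windows with the YY1 word belong to 8 genes, as a pair of windows of Atp5sl holds the same site. The sites lie between 22 and 35 bases after the start, except in Atp5j, where the word begins 88 bases before it, and counted from the later start of Atp5sl, where it begins 53 bases before. Of the 8 genes, Ndufs7 and Atp5j2 had higher RNA in conditioned medium by the test described further on. So did 9 of the 80 tested members and 10.4% of all genes, and a relation of the word to the change was not tested. The stretches of 30 bases around each word follow, 5′ to 3′ on the gene's strand, with the word in capitals; they come from chr10:80249463-80249492 (plus strand, Ndufs7), chr5:145191499-145191528 (minus, Atp5j2), chr3:51408914-51408943 (minus, Ndufc1), chr13:73328433-73328462 (minus, Ndufs6), chr13:114388045-114388074 (minus, Ndufs4), chr6:126849096-126849125 (minus, Ndufa9), chr7:25619430-25619459 (plus, Atp5sl) and chr16:84835045-84835074 (minus, Atp5j).
Ndufs7: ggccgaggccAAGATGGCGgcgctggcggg
Atp5j2: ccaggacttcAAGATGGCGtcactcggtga
Ndufc1: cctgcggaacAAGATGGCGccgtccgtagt
Ndufs6: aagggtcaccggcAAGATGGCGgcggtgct
Ndufs4: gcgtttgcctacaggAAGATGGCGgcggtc
Ndufa9: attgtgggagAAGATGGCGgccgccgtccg
Atp5sl: gttacctggcAAGATGGCGgcgcccagagc
Atp5j: aagtgtaggaAAGATGGCGgagtcttagct

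The promoters of Cox8a and Uqcr10 are shown because both genes had higher RNA in conditioned medium. Both windows hold CCAAT, and that of Cox8a also the ETS word. Of other genes higher by the same test, Ndufs8 and Atp5j2 have CCAAT in their windows, while Ndufs7, Ndufa12 and Ndufa8 have neither word. CCAAT is about as common in all windows (37.4%) as in those of the members (42.7%), and its relation to the RNA change was not tested. The stretches of 205 bases end 30 bases after the start, at chr19:7217587-7217791 (Cox8a, minus strand) and chr11:4704315-4704519 (Uqcr10, minus strand). Capitals mark CCAAT read on the opposite strand in both, and in Cox8a also the ETS word on the opposite strand, 6 bases before the start. The Cox8a window has one more ETS word 31 bases after the start, outside the printed stretch.
Cox8a: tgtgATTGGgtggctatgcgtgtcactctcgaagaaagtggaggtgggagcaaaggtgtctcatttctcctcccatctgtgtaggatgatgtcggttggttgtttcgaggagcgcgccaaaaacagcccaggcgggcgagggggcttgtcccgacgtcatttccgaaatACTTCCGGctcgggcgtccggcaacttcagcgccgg
Uqcr10: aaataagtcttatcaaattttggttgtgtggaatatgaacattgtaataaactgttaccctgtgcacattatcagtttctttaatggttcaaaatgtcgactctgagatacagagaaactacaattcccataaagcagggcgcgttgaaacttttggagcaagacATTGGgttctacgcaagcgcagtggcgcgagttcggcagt

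The libraries held 15023994 to 16956754 fragments. Libraries 0 and 1 of the unconditioned WT group differed by less than counting noise (chi-square 759 on 15474 degrees of freedom) and were counted as 1 sample. F2rl1 does not check the genotype labels, since 33 to 46 fragments fell on it in unconditioned KO libraries against 20 to 25 in unconditioned WT, and 12 to 31 against 14 to 23 in conditioned medium; which exons these fragments cover is not known here. Several marker sums moved with the medium. Summed osteoblast markers (12 genes) were 36640 to 58040 CPM (fragments scaled to a common library size) in unconditioned and 24460 to 41480 CPM in conditioned libraries; of the 10 tested, Alpl was lower (log2 change -1.43) and Bglap2, with 0 to 41 fragments, higher (2.68). Macrophage and osteoclast markers (11 genes, Dcstamp at 0 throughout) summed to 168 to 227 CPM in unconditioned and 354 to 488 CPM in conditioned libraries. Most of that sum is Ctsk (96.5 to 157 against 227 to 406 CPM), and without it the ranges overlap, at 43.7 to 75 against 46.2 to 127 CPM; of the 9 tested, Ctsk and Cybb were higher. Endothelial markers (4 genes) summed to 3.88 to 7.83 against 7.84 to 15.2 CPM, with Tek (0.86) and Kdr (1.89) higher. Adipocyte markers (6 genes) summed to 10.6 to 39.7 against 2.86 to 9.86 CPM, with Fabp4 lower (-1.84). Smooth muscle and pericyte markers (6 genes) summed to 1565 to 2215 against 367 to 1535 CPM, which do not overlap. Of these genes, Rgs5 (-1.95) and Cnn1 (-2.11) were lower and Cspg4 (1.26) was higher. The part of these marker levels in the medium effects below was not tested. Skeletal muscle markers (22 genes) summed to 361 CPM in unconditioned WT library 0 and 282 CPM in conditioned WT library 1, and to 33.0 to 145 CPM elsewhere. The first principal component of all genes held 46.7% of the variance. On it conditioned KO libraries 1 and 2 stood apart at 64.8 and 79.1, while conditioned KO library 0 lay at -4.81. The smooth muscle and pericyte sum was lowest in conditioned KO libraries 1 and 2 (467 and 367 CPM), against 1535 CPM in conditioned KO library 0. Counts of genes called for the mean medium effect are given below with and without conditioned KO libraries 1 and 2.

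Of the fragments on genes with a symbol, between 0.606% and 0.787% per library fell on the members. Their summed level was 6459 and 6324 CPM in the unconditioned WT libraries 0 and 2, and 7609, 6403 and 7479 CPM in the conditioned WT libraries 0, 1 and 2. It was 6723, 6588 and 6515 CPM in the unconditioned KO libraries and 7132, 6061 and 5770 CPM in the conditioned KO libraries, in the same order. Conditioned WT libraries 0 and 2 and conditioned KO library 0 were the highest, and conditioned KO libraries 1 and 2 the lowest, so the conditioned groups (7164 ± 662 CPM in WT, 6321 ± 718 in KO, SD, n = 3) spread more widely than the unconditioned ones (6391 ± 95.8 in WT, n = 2, and 6609 ± 106 in KO, n = 3). The lowest place of conditioned KO libraries 1 and 2 holds on the TMM scale of these CPM, a scaling that balances most genes between libraries. As shares of the fragments on genes with a symbol, with no such scaling, these libraries (0.657% and 0.650%) lay above all 5 unconditioned ones (0.606% to 0.645%). Since these are bulk samples, fewer cells of a type and less RNA per cell cannot be told apart.

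**Figure D1:**
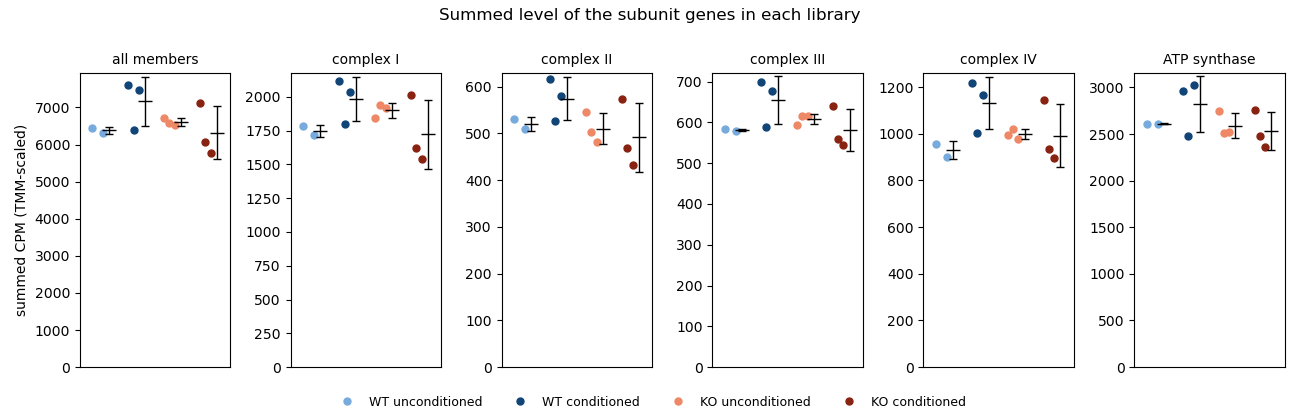
Summed CPM of all subunit genes and of each complex (vertical axes, from 0) in each library, with 1 point per library and the mean ± SD of each group beside the points (n = 2 for WT unconditioned, n = 3 for the others). On this TMM scale conditioned KO libraries 1 and 2 have the lowest overall sums, 6061 and 5770 CPM, and conditioned WT library 0 the highest, 7609 CPM; as unscaled shares the lowest are unconditioned KO libraries 2 and 1 (0.606% and 0.609%).

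In each of the 5 complexes the conditioned WT group had the highest mean sum, and conditioned KO library 0 lay above libraries 1 and 2, on the CPM scale and as unscaled shares. Complex I summed to 1749 ± 44.2 CPM in WT unconditioned, 1983 ± 162 in WT conditioned, 1901 ± 53.3 in KO unconditioned and 1725 ± 256 in KO conditioned. For complex IV the means were 930 ± 38.5, 1131 ± 112, 999 ± 22.1 and 992 ± 134 CPM in the same order. Corrected for gene length, as FPKM (fragments scaled by gene length and depth), the highest mean levels over the 11 libraries were 556 for Atp5b, the catalytic beta subunit of ATP synthase, 447 for Cox8a, 281 for Ndufa4, 208 for Uqcrq and 105 for Sdhc. The median over the members was 70.7 FPKM. The complex II genes were the most even, from 70.0 FPKM for Sdha, the flavoprotein that oxidises succinate, to 105 for Sdhc, a membrane anchor.

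Conditioned medium was first compared with unconditioned medium as the mean of the WT and KO effects (edgeR quasi-likelihood test, Benjamini-Hochberg adjusted p under 0.05 over 13603 genes). Of the 80 tested members, 9 were higher in conditioned medium and 0 lower, by 1.17-fold to 1.40-fold. An unadjusted p under 0.05 was found for 20 of the 80, against 4942 of all 13603 genes. DESeq2 called 10, all higher (26.8% of all genes). Over all genes tested the called share was 20.5%, with 10.4% higher and 10.1% lower, so the share of members called higher is near the background. The 9 genes were Ndufa1, Ndufa8, Ndufa12, Ndufs7 and Ndufs8 of complex I, Uqcr10 and Uqcrq of complex III, Cox8a of complex IV and Atp5j2 of ATP synthase. The median log2 change of the members was 0.11, against 0.02 for all genes, and 57 of 80 were above 0 (52.8% of all genes). Changes in this mean were small: 3 of 80 members (3.75%) differed by more than 0.5 on the log2 scale, against 26.7% of all genes. They were Ndufa4l2, Cox4i2 and Cox6b2, which were lower and not called. The median size was 0.15 against 0.26. At a mean of 100 fragments or more, 2.7% of members and 20.5% of all genes differed by more than 0.5, and median sizes were 0.15 and 0.22. Within WT the median size was 0.24 for all tested members against 0.22 for all genes, and within KO 0.21 against 0.35.

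The calls of complex I included core subunits that hold iron-sulfur clusters in the arm that reaches into the matrix. Ndufs8 (XLOC_011258, chromosome 19, 3908863 to 3912774, GRCm38) measured 31.7 and 32.4 CPM in the unconditioned WT libraries 0 and 2, 40.6, 39.4 and 34.8 CPM in the conditioned WT libraries 0 to 2, 30.8, 33.9 and 33.9 CPM in unconditioned KO, and 35.5, 46.2 and 50.6 CPM in conditioned KO. All 6 conditioned libraries lay above all 5 unconditioned ones, and the log2 change was 0.34 (SE 0.10, adjusted p = 0.0414 by edgeR). Ndufs7 (XLOC_001745, chromosome 10, 80249121 to 80256794), whose cluster hands electrons to ubiquinone, had 25.3 and 26.3, then 37.3, 34.4 and 37.8 CPM in the WT groups, and 24.5, 33.2 and 36.1, then 33.8, 38 and 35 CPM in the KO groups. Its groups separated in WT and overlapped in KO, where unconditioned library 2 lay above conditioned libraries 0 and 2 (mean log2 change 0.34, SE 0.11, adjusted p = 0.0449).

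The other complex I calls were accessory subunits. Ndufa12 (XLOC_001844, chromosome 10, 94198720 to 94221443) had 8.15 and 7.69 CPM in unconditioned WT, 11.6, 8.44 and 12.4 in conditioned WT, 9.19, 8.46 and 9.30 in unconditioned KO and 12.8, 13.3 and 12.5 in conditioned KO (log2 change 0.49, SE 0.12, adjusted p = 0.0214). Only conditioned WT library 1 fell within the unconditioned range. Ndufa1 (XLOC_024905, chromosome X, 37187588 to 37191163), an X-linked subunit, had 25.7 and 26.6, then 37.6, 27.3 and 35.6 CPM in WT, and 29.2, 24.3 and 23.5, then 36.0, 32.6 and 30.6 CPM in KO (0.36, SE 0.11, adjusted p = 0.0415), and again conditioned WT library 1 alone overlapped. Ndufa8 (XLOC_012890, chromosome 2, 36036326 to 36049406) had the smallest change of the 9, with 46.3 to 49.2 CPM in the 5 unconditioned libraries and 51.0 to 57.9 CPM in the 6 conditioned ones, which do not overlap (0.22, SE 0.07, adjusted p = 0.0401). Ndufc1 just missed the threshold, with a log2 change of 0.35 (SE 0.11) and an adjusted p of 0.0504.

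In complex III the calls were a pair of small accessory subunits. Uqcr10 (XLOC_003530, chromosome 11, 4701973 to 4704342) had 36.1 and 34.8 CPM in unconditioned WT, 58.9, 43.3 and 54.2 in conditioned WT, 41.6, 41.0 and 44.5 in unconditioned KO and 46.0, 50.8 and 59.7 in conditioned KO. Its log2 change of 0.43 (SE 0.10, adjusted p = 0.0171) had the lowest adjusted p of the members, and conditioned WT library 1 alone fell within the unconditioned range. Uqcrq (XLOC_003701, chromosome 11, 53427922 to 53430831) had 59.9 and 55.8, then 83.4, 74.8 and 72.3 CPM in WT, and 60.8, 73.3 and 77, then 70.3, 101 and 113 CPM in KO (0.42, SE 0.13, adjusted p = 0.0421); the WT groups separated and the KO groups overlapped. The 6 other members of the complex, small and large, were not called. Among them the change was 0.17 (SE 0.12) for Uqcrfs1, the Rieske iron-sulfur protein, -0.15 (SE 0.15) for the core protein Uqcrc1 and -0.11 (SE 0.10) for Uqcrc2. Cyc1, cytochrome c1 of the same complex, is missed by the symbol rule and was called higher (0.20, SE 0.06, adjusted p = 0.0478 by edgeR).

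Cox8a (XLOC_011348, chromosome 19, 7215153 to 7217616), an accessory subunit of cytochrome c oxidase, had 176 and 161 CPM in unconditioned WT, 243, 195 and 234 in conditioned WT, 182, 171 and 174 in unconditioned KO and 235, 192 and 193 in conditioned KO. The media did not overlap, and the log2 change was 0.32 (SE 0.09, adjusted p = 0.0323). Atp5j2 (XLOC_017855, chromosome 5, 145183698 to 145192062), subunit f of the membrane part of ATP synthase, had 41.9 and 38.2, then 57.7, 41.8 and 52.4 CPM in WT, and 42.7, 43.9 and 42.7, then 51.0, 49.9 and 51.6 CPM in KO (0.29, SE 0.09, adjusted p = 0.0466), with conditioned WT library 1 alone in the unconditioned range. None of the 4 complex II genes was called: Sdhd changed by 0.14, Sdhc by 0.10, Sdhb by 0.02 and Sdha by -0.02 on the log2 scale, with standard errors of 0.09 to 0.13. For Atp5b the change was 0.10 (SE 0.12). The largest rises in complex IV and ATP synthase were those of Cox5b (0.48, SE 0.21) and Atp5sl (0.44, SE 0.17). Neither was called (adjusted p = 0.122 and 0.0843 by edgeR). The lowest values in these complexes were -1.28 (SE 0.52) for Cox4i2 and -0.26 (SE 0.62) for Atp5l, also not called.

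**Figure D2:**
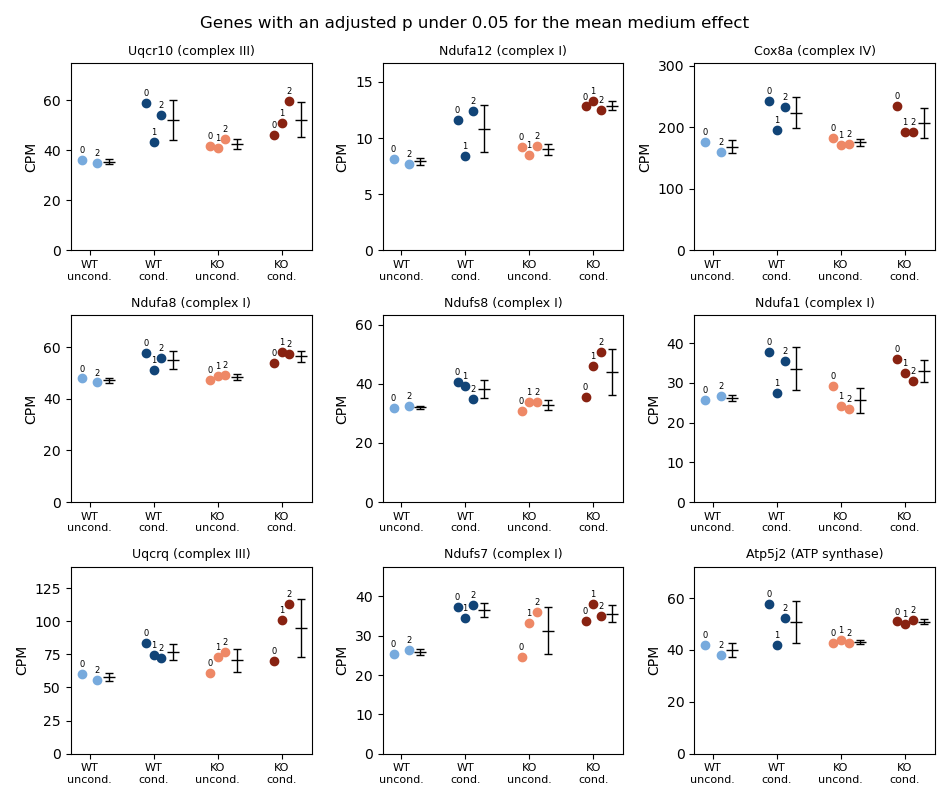
CPM (vertical axes, from 0) of the 9 genes called for the mean medium effect, by group, with 1 point per library labelled by its number and the mean ± SD of each group beside it. For Cox8a, Ndufa8 and Ndufs8 every conditioned library lies above every unconditioned one; for Uqcr10, Ndufa12, Ndufa1 and Atp5j2 conditioned WT library 1 is the exception.

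Groups that do not overlap over all 11 libraries were found for 3 members that were higher in conditioned medium (Ndufa8, Ndufs8 and Cox8a, against 7.98% of all genes) and for 1 that was lower, Ndufa4l2 (against 8.45%). Ndufa4l2 (XLOC_001949, chromosome 10, 127514967 to 127517154), a relative of Ndufa4 known to be induced by hypoxia, had 89.7 and 71.5 CPM in unconditioned WT, 46.8, 35.6 and 56.5 in conditioned WT, 94.8, 115 and 106 in unconditioned KO and 69.5, 11.5 and 4.64 in conditioned KO. The levels in conditioned KO libraries 1 and 2 were far below all others, and the log2 difference of -1.34 (SE 0.54) did not pass the test (adjusted p = 0.102 by edgeR). Without these 2 libraries it was -0.70 and passed.

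The count of 9 depended on single libraries and on the pairing of libraries. The calls were lost when either unconditioned WT library was left out, which leaves 1 library in that group. The median member change was 0.12 without library 0 and 0.09 without library 2. Leaving out conditioned KO library 0 gave a count of 24 (15 higher, 9 lower), against 41.6% of all genes (20.9% higher, 20.7% lower). Without conditioned KO libraries 1 and 2 it was 5, with Cox4i1, Cox8a, Ndufa10 and Ndufb10 higher and Ndufa4l2 lower, against 10.3% of all genes. With the library number as a block it was 4 (Cox8a, Ndufa1, Ndufa12 and Uqcr10; 17.3% of all genes), and with a block within each genotype 1 (Uqcrq; 13.9%). Scaled by library totals alone, without TMM, it was 21, all higher, against 25.2% of all genes (17.7% higher, 7.46% lower). That scaling moved the median of all genes from 0.02 to 0.15 and that of the members from 0.11 to 0.23.

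Within WT, 0 of 80 members were called between media by edgeR (1.78% of all genes were, 1.23% as higher and 0.551% as lower). An unadjusted p under 0.05 was found for 16, against 2061 of all 13603 genes. DESeq2 called 1, Uqcr10 (6.51% of all genes). The lowest adjusted p was 0.101, for Uqcr10, with a log2 difference of 0.56 (SE 0.15). The median difference was 0.24, against 0.01 for all genes, and 70 of 80 members were above 0 (52.0% of all genes). In 34 members every conditioned WT library lay above both unconditioned ones (21.8% of all genes did so), and in Ndufa4l2 and Cox6b2 every one lay below (20.6% of all genes).

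Within KO the called members were 1 of 80, Cox4i2, which was lower in conditioned medium; 18.3% of all genes were called, 9.68% as higher and 8.58% as lower. DESeq2 called 5 (26.4% of all genes): Ndufa12 and Ndufs8 higher, and Atp5c1, Cox4i2 and Ndufc2 lower. Cox4i2 (XLOC_012459, chromosome 2, 152754173 to 152765037), the isoform of Cox4 known from lung and from hypoxic cells, rests on 2 to 42 fragments per library. It had 1.15, 1.55 and 2.83 CPM in unconditioned KO and 0.684, 0.243 and 0.108 CPM in conditioned KO, which do not overlap; in WT the values were 1.31 and 0.769 against 1.29, 0.270 and 1.26. The KO difference was -2.42 on the log2 scale (SE 0.72, adjusted p = 0.0451), and with the replicate block the adjusted p was 0.0517 and the count 0 (13.4% of all genes). Scaled by library totals alone, the KO count was 12, with 11 higher and Cox4i2 lower (26.0% of all genes, 19.7% higher and 6.31% lower). In KO 17 members had an unadjusted p under 0.05, against 5022 of all 13603 genes. The median difference was -0.04, against 0.02 for all genes, and 36 of 80 members were above 0 (51.6% of all genes). With library totals alone the medians were 0.14 and 0.21. In 12 members every conditioned KO library was higher (15.8% of all genes) and in Ndufa4l2, Cox4i2 and Atp5a1 every one was lower (15.4%).

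**Figure D3:**
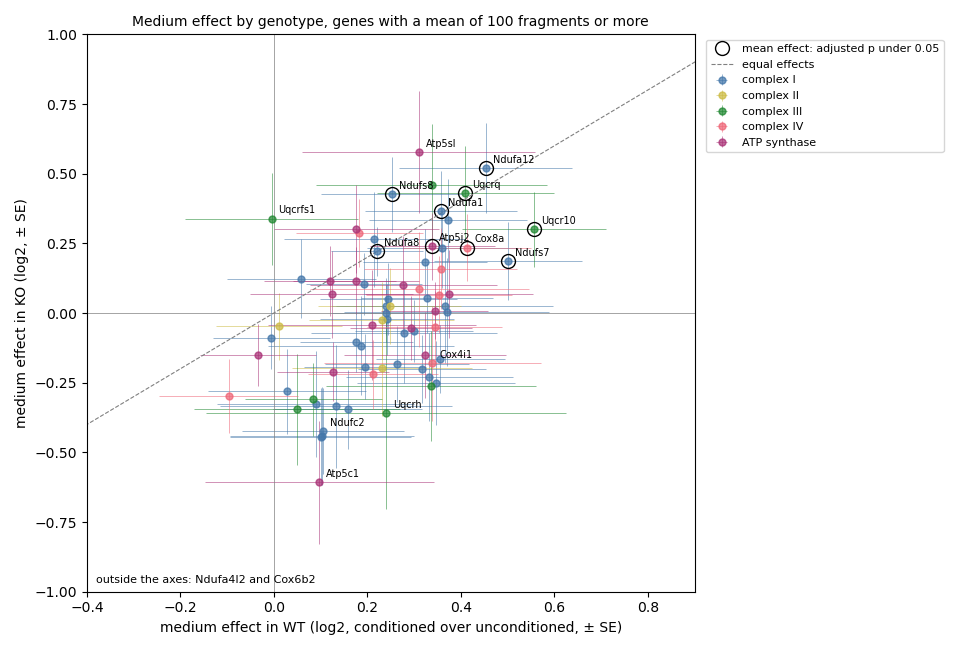
Log2 medium difference in WT (horizontal axis) and in KO (vertical axis), each ± SE, for members with a mean of 100 fragments or more; colours give the complex, circles mark the 9 genes called for the mean effect and the dashed line marks equal differences. Most points lie right of 0 and below the line. Ndufa4l2 (-0.80 in WT, -1.89 in KO) and Cox6b2 (-0.22 and -1.14) are outside the axes.

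The interaction tested whether the medium difference itself differed between KO and WT. No member passed (0 of 80, as for 0.0% of all genes), the lowest adjusted p was 0.819 by edgeR, and DESeq2 called 0. An unadjusted p under 0.05 was found for 7 members, against 412 of all 13603 genes. The median interaction was -0.27 on the log2 scale, against -0.018 for all genes, and 13 of 80 members were above 0 (48.2% of all genes). Atp5c1, the rotating gamma shaft of ATP synthase, had 138 and 143, then 162, 135 and 153 CPM in WT, and 146, 173 and 174, then 154, 91.1 and 78.2 CPM in KO. Its interaction was -0.71 (SE 0.33, adjusted p = 0.819), and the low values are those of conditioned KO libraries 1 and 2. No member moved in opposite directions in WT and KO without overlap of the groups; 0.147% of all genes did so with the rise in WT and 0.154% with the rise in KO.

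Libraries labelled KO were compared with WT libraries in each medium, with genotype labels that the level of F2rl1 does not bear out. In unconditioned medium 0 of 80 members were called by edgeR (0.00735% of all genes) and 0 by DESeq2. An unadjusted p under 0.05 was found for 2 members, against 294 of all 13603 genes. Those 2 were Ndufa3, with 40.3 and 33.7 CPM in WT against 45.8, 53.6 and 50.2 in KO (log2 difference 0.43, SE 0.13), and Atp5s, with 7.49 and 7.83 CPM against 8.52, 11.1 and 12.1 (0.46, SE 0.20), both with an adjusted p of 0.998. The KO libraries lay above both WT libraries in 26 members (9.12% of all genes) and below in 1, Ndufs1 (7.99%). The median difference was 0.13, against 0.0095 for all genes, and 63 of 80 members were above 0 (51.8% of all genes).

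In conditioned medium 0 of 80 members differed between KO and WT by edgeR (0.0% of all genes), with a lowest adjusted p of 0.357. An unadjusted p under 0.05 was found for 11 members, against 1897 of all 13603 genes. DESeq2 called 0 (0.0147% of all genes). The median difference was -0.16, against -0.012 for all genes, with 21 of 80 members above 0 (48.6% of all genes). The largest differences in each complex, none of which passed the test, were -0.70 for Ndufa4l2 and 0.27 for Ndufc1, -0.40 for Sdhb, the iron-sulfur subunit of complex II, -0.55 for Uqcrh and 0.36 for Uqcrfs1, -1.45 for Cox4i2 and 0.91 for Cox6a2, and -0.48 for Atp5l and 0.53 for Atp5sl. The groups did not overlap for Ndufa12, which was higher in KO (4.65% of all genes), and for Ndufa13, Uqcrc2 and Cox6a1, which were lower (4.21%).

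The 3 conditioned KO libraries were not alike. Library 0 was higher than both libraries 1 and 2 in 58 of 80 members and lower in 17, against 44.5% and 45.2% of all genes. On the log2 scale, the mean of libraries 1 and 2 over library 0 was -3.11 for Ndufa4l2, -2.64 for Cox6b2, -1.16 for Uqcrh, the hinge protein of complex III, -0.87 for Atp5c1, -0.80 for Cox4i1 and -0.78 for Uqcrc1; it was 0.76 for Atp5sl, 0.64 for Uqcrfs1, 0.61 for Uqcrq, 0.53 for Atp5g1 and 0.45 for Ndufs8. Uqcrh had 116 CPM in conditioned KO library 0 and 60.5 and 43.2 in libraries 1 and 2, against 82.2 to 105 in unconditioned KO. Uqcrfs1 went the other way, with 67.6 CPM in library 0 and 100.2 and 110.1 in libraries 1 and 2, against 65.8 to 78.0 in unconditioned KO. Subunits of 1 complex thus differed in opposite directions among libraries that carry the same label.

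**Figure D4:**
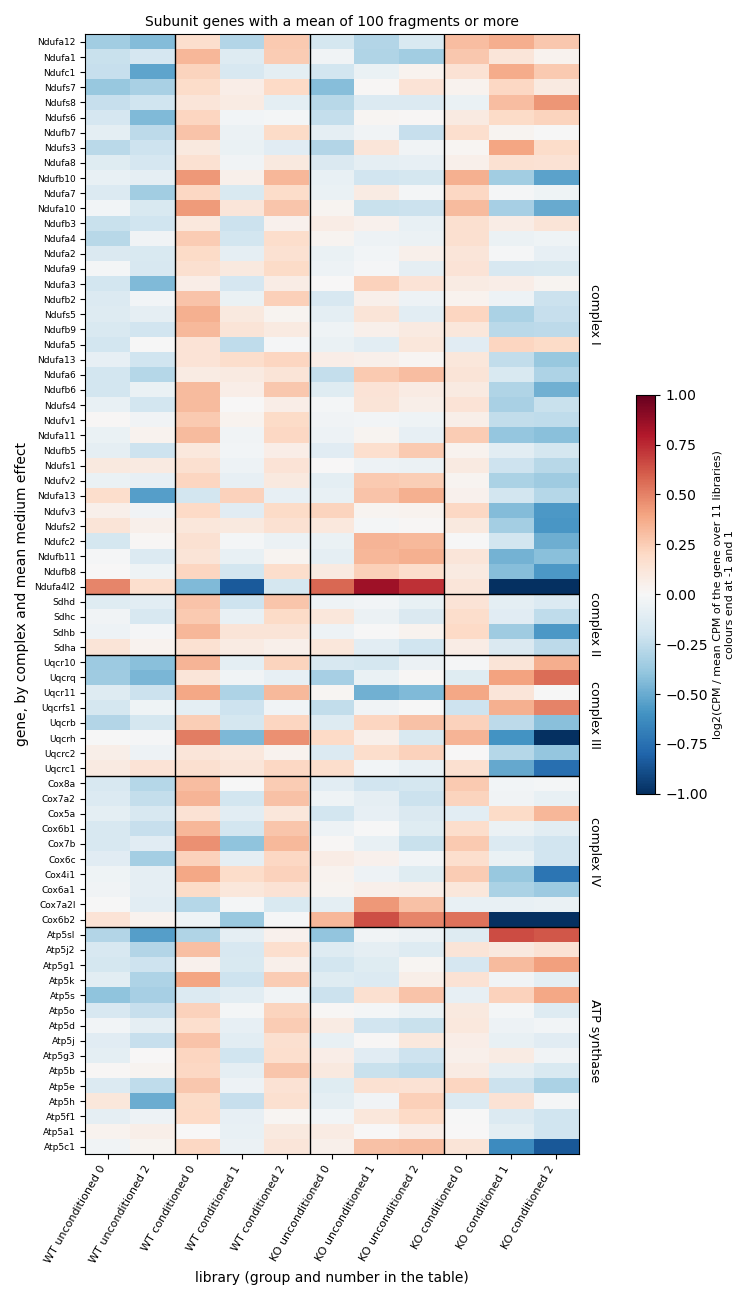
Log2 of each library's CPM over the gene's mean of the 11 libraries, for members with a mean of 100 fragments or more, ordered by complex (lines of the map) and group (columns). The columns of conditioned KO libraries 1 and 2 hold both the lowest and the highest values of many genes, and conditioned WT library 1 is lower than libraries 0 and 2 for most genes (64 of the 80 tested).

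Leaving out conditioned KO library 0 changed the counts. In KO, 30 members then passed between media, 9 higher and 21 lower (44.9% of all genes, 22.9% higher and 21.9% lower). Between KO and WT in conditioned medium it was again 30, 5 higher and 25 lower (33.2% of all genes, 17.3% higher and 15.9% lower). In the interaction 18 passed, all lower (10.5% of all genes, 5.22% higher and 5.24% lower). Among the genes lower in KO were Atp5c1, Uqcrc1, Uqcrh, Cox4i1 and Sdhb, and among the higher ones Uqcrfs1, Uqcrq and Ndufs8. With conditioned KO libraries 1 and 2 left out instead, so that library 0 stood alone and was assumed to vary like the other groups, the counts were 0 in each of these comparisons (0.0145% of all genes for the KO medium difference, 0.0% for the others) and the median KO medium difference was 0.12 in place of -0.04. Without both KO libraries of number 0, 35 members passed between media in KO (50.4% of all genes), 37 between KO and WT in conditioned medium (42.6%), 26 in the interaction (19.2%), 29 for the mean medium effect (48.6%), 7 between media in WT (11.7%) and 4 between KO and WT in unconditioned medium (4.86%).

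A second uneven library was conditioned WT library 1. It was lower than both other conditioned WT libraries in 64 of 80 members and higher in 3, where 38.4% and 38.9% of all genes were. Uqcrh had 66.8 CPM there against 130.0 and 125 CPM in libraries 0 and 2, and Sdhd 85.3 against 120.3 and 119. The same library had a skeletal muscle marker sum of 282 CPM against 33.0 and 36.9 in the other conditioned WT libraries and an osteoblast marker sum of 41480 CPM against 26900 and 29750. The part of these marker levels in the members' levels was not tested.

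Several subunits exist as isoforms of different tissues, and the widely expressed isoform was the higher one in each such pair. Mean levels were 336 FPKM for Cox4i1 and 1.57 for Cox4i2 (0.467% of it), 308 for Cox6a1 and 3.79 for the heart and muscle form Cox6a2 (1.23%), and 114 for Cox7a2 and 2.22 for the heart and muscle form Cox7a1 (1.95%). Cox8a had 447 FPKM and its muscle form Cox8b 0.378, and Cox8c was at 0 in every library. Cox6b2, known as a testis form, was less rare: it reached 22.3 FPKM (7.68% of Cox6b1 at 289.5 FPKM), with 12.3 to 15.2 CPM in unconditioned KO and 14.2, 3.16 and 1.40 CPM in conditioned KO. Ndufa4l2 had 69.6 FPKM, 24.7% of Ndufa4, over a range of 5.04 to 124. Among the genes for subunit c of ATP synthase, which encode the same mature protein, Atp5g3 had 271 FPKM and Atp5g1 26.5 (9.80%).

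The other genes of oxidative metabolism were read from lists chosen for their function, for the mean medium effect. Of 19 tested subunits and carriers that the symbol rule misses, 3 rose: Vdac2, a channel of the outer membrane (log2 change 0.37), Cyc1, cytochrome c1 of complex III (0.20), and Gpd2, which feeds electrons from glycerol 3-phosphate into the chain (0.45). The background is that given above, 10.4% of all genes higher and 10.1% lower. Of 49 assembly factors 8 rose and 0 fell, with a median of 0.20; examples are Coa3 (0.49) and Cox10 (0.53) for complex IV, Tmem126a (0.61) for complex I and Lrpprc (0.72). Lrpprc, which stabilises mitochondrial mRNAs, had 66.6 and 73.1 CPM in unconditioned WT against 123, 111 and 104 in conditioned WT, and 65.9, 61.8 and 62.5 in unconditioned KO against 90.8, 117 and 111 in conditioned KO. Its libraries did not overlap between media in either genotype, and it was called in both (0.69 in WT, adjusted p = 0.0335; 0.74 in KO, adjusted p = 0.00669, by edgeR). An entry shared by Sco2 and Tymp rose by 1.45, and its fragments cannot be divided between these genes. Cox10 had 37.3 and 43.0 CPM in conditioned KO libraries 1 and 2 and 21.7 in library 0, against 22.7 to 23.8 in conditioned WT. Without libraries 1 and 2 1 of the 19 carriers rose (Gpd2, 0.41) and 4 of the 49 assembly factors did (Lrpprc 0.61, Tmem126a 0.47, Uqcc2 0.40 and the entry of Sco2 and Tymp 0.86), against 5.32% of all genes higher and 5.01% lower. Cox10 was then at 0.21 (adjusted p = 0.140 by edgeR) and Coa3 at 0.35 (adjusted p = 0.0546).

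Of 25 genes of the tricarboxylic acid cycle and pyruvate entry, 2 rose and 3 fell (10.4% of all genes higher, 10.1% lower), which is near the background. Pdhb, a subunit of pyruvate dehydrogenase, rose by 0.45 and Idh3b by 0.33. Pdk4, a kinase that inhibits pyruvate dehydrogenase, fell by 1.65 on the log2 scale, from 18.8 to 31.4 CPM in the unconditioned libraries to 5.82 to 10.8 in the conditioned ones. The mitochondrial isocitrate dehydrogenase Idh2 fell by 1.29 and the kinase Pdk3 by 0.74. Without conditioned KO libraries 1 and 2 Pdk4 (-1.50) and Pdk3 (-0.44) were still called and none of the 25 rose; Pdhb was at 0.19 (adjusted p = 0.156), Idh3b at 0.39 (0.0564) and Idh2 at -1.12 (0.0681, by edgeR). Of 12 transcription regulators of mitochondrial genes, 1 was called (20.5% of all genes), Ppargc1a, the coactivator PGC-1alpha. It had 2.04 and 3.01 CPM in unconditioned WT, 24.7, 11.6 and 13.4 in conditioned WT, 1.28, 1.27 and 1.75 in unconditioned KO and 9.33, 47.0 and 53.4 in conditioned KO (log2 change 3.69, SE 0.48, adjusted p = 0.00143 by edgeR). Every conditioned library was above every unconditioned one, and conditioned KO library 0 was the lowest of the conditioned ones; without libraries 1 and 2 of that group the change was 2.71 and was called. The mitochondrially encoded subunits have no entry under their symbols in the table used here.

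**Figure D5:**
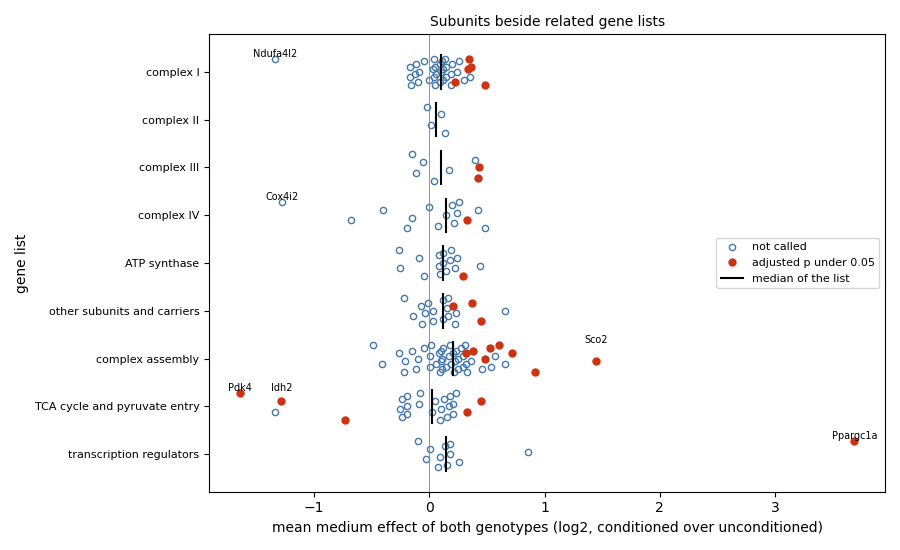
Log2 change with conditioned medium (mean of both genotypes) for each tested gene of the 5 complexes and of the lists of related genes, 1 point per gene, with filled points for genes with an adjusted p under 0.05 and a bar at each list's median. Ndufa4l2 (-1.34), Cox4i2 (-1.28) and Cox6b2, none of them called, lie below the other subunits. The others lie within 0.5 of 0, with called genes between 0.22 and 0.49. Ppargc1a at 3.69 and Pdk4 at -1.65 lie far outside that range.

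Some members are measured less well than others. Short, abundant genes of this family are known to have processed copies elsewhere in the genome. Windows of 50 bases of the longest coding transcript (GENCODE M21) were sought in transcripts of any other gene entry. They were found there for 84.9% in Atp5l, 50.3% in Atp5o, 47.9% in Atp5h, 43.4% in Uqcrb and 39.7% in Ndufs3. The shares were 26.2% in Ndufa12, which was called, 14.7% in Cox4i1 and 7.83% in Uqcrh. In Ndufb4 and Atp5g2, which fell under the filter on low counts, they were 37.0% and 14.8%. These are not shares in processed copies alone: Cox4i1 matches only Emc8, with 0 pseudogenes, and the closest entry to Atp5o carries its own symbol. Fragments may have been divided between such entries by the counting, so these levels are uncertain. Atp5l had 1 to 12 fragments per library and Cox7c 4 to 12. TruSeq libraries of this kind do not mark the strand, so antisense transcripts are counted with the genes.

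The authors' deposited table of tests per start-site group gives few members too. It marks 1 member group as significant between media in WT (Uqcr10, higher; 8.76% of all groups tested), 3 in KO (Atp5c1 and Cox6b2 lower and Atp5sl higher; 16.8%), 0 between KO and WT in unconditioned medium (2.21%) and 1 in conditioned medium (Uqcrh, lower; 7.20%). The authors' deposited table of promoter use could test 8 members and marks 1 of them, between media in WT (1.48% of all genes tested).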

How the data were processed

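RNA abundance was measured in 12 libraries. TopHat2 2.0.9, Cufflinks 2.1.1, Cuffdiff 2.1.1 and CASAVA 1.8.2 are named in the submitters' processing notes, with GRCm38 (mm10). The authors' Cuffdiff table holds, per the file headers, raw fragments per gene and library, which are estimated counts (expected counts, 94.3% of them whole within 1e-06), and FPKM, fragments divided by length and depth and scaled by the authors. The authors' deposited test tables hold p-values and q-values and log2 fold changes, of which only the calls are quoted. Feature lengths and other columns of the deposited files, described per the file headers, were not tested.

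Symbols came from the deposited promoter table. Entries without a symbol (1714, with 2.69% to 3.10% of the fragments) were left out. Libraries 0 and 1 of the unconditioned WT group, which share 91.8% of their values, were used once. The library numbers start at 0, the sample titles at 1, and nothing ties them; 1 sample titled WT carries the knockout label and was kept by its title. It belongs to the unconditioned WT group, on whose 2 distinct libraries the WT medium effect, the unconditioned genotype comparison and the interaction rest.

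Rounded fragments were fitted by robust quasi-likelihood in edgeR 4.0.16 (R 4.3.3) after filterByExpr and TMM scaling, with the 4 groups in 1 fit (7 residual degrees of freedom) over 13603 genes, and p-values were adjusted by Benjamini-Hochberg over all of them. A standard error is the absolute log2 change over the square root of F. The design had assumed 12 distinct libraries. The script was tested on simulated data. CPM are TMM-scaled. Named genes are the called members, those nearest the threshold, and per complex the largest changes; others, such as Ndufa4l2, were chosen after their values were seen. Members and gene lists were chosen with earlier results of these data known. Alternatives used DESeq2 1.42.0, limma 3.58.1 on log2(FPKM + 1) and log2(FPKM + 0.1), other filters, scaling without TMM, left-out libraries and blocks.

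Library numbers were checked as pairs by correlating deviations from group means. In KO the same-numbered pairs gave 0.354, 0.241 and 0.317, all over 0.1, and the numbers were taken to pair these libraries. Unlike numbers passed 0.1 too: conditioned library 1 with unconditioned 2 gave 0.283, and conditioned 2 with unconditioned 1 gave 0.104. Pairs of library 0 with library 1 or 2 gave -0.356 to -0.185, so the correlations set library 0 apart and do not settle the pairing. In WT number 0 gave -0.146 and number 2 gave 0.438, and conditioned library 1 with unconditioned library 0 gave 0.484. The block within each genotype took the merged unconditioned WT library as number 1. Promoter sequences are RefSeq's (GRCm38.p6).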

Additional observations from a re-analysis of the deposited data

How the results depend on the processing

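The number of members called for the mean medium effect was 9 (20.5% of all genes). It was 4 without a filter on low counts (13.8%) and 29 without both KO libraries of number 0 (48.6%). With library totals in place of TMM it was 21 (25.2%). With single libraries of the groups of 3 left out it ranged from 1 to 24 (12.1% to 41.6%). With the replicate block it was 4 (17.3%), and 1 with a block within each genotype (13.9%). Without conditioned KO libraries 1 and 2, which left 1 library in that group, the median member change was 0.19. The block within each genotype was added after seeing the data, as were leaving out conditioned KO libraries 1 and 2 and scaling without TMM. In WT, the count of 0 (1.78% of all genes) became 1 with DESeq2 (6.51%) and 2 with both identical libraries counted (6.89%). Without both KO libraries of number 0 it was 7 (11.7%). With single libraries of the groups of 3 left out it was 0 to 1 (0.111% to 6.75%). In KO, the count of 1 (18.3% of all genes) became 5 with DESeq2 (26.4%) and 12 with library totals in place of TMM (26.0%). It was 2 with a mean of 100 fragments or more (21.2%) and 3 with limma on either FPKM scale (15.1% and 15.5%). With both identical libraries counted it was 3 (25.1%), and without both KO libraries of number 0 it was 35 (50.4%). Either replicate block gave 0 (13.4%, and 13.2% within each genotype). With single libraries of the groups of 3 left out it was 0 to 30 (2.36% to 44.9%). Without both KO libraries of number 0, KO against WT gave 4 in unconditioned (4.86% of all genes) and 37 in conditioned medium (42.6%). The interaction then gave 26 (19.2%). With single libraries of the groups of 3 left out these counts ranged from 0 to 0, 0 to 30 and 0 to 18. The shares of all genes were then at most 0.0147%, 33.2% and 10.5%.

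Signs turned for members that had not been called. Without conditioned KO libraries 1 and 2 the mean medium difference was 0.37 for Atp5l, 0.073 for Sdha and 0.091 for Uqcrc1, and the KO difference in conditioned medium 0.79 for Atp5l, -0.010 for Atp5sl, -0.87 for Cox6a2, 0.59 for Ndufa4l2, 0.0073 for Sdhb, 0.0068 for Sdhd, -0.092 for Uqcrfs1 and 0.11 for Uqcrh. Without TMM it was 0.11 for Sdha. With single libraries left out, the mean medium difference ranged from -0.63 to 0.58 for Atp5l and from -0.068 to 0.028 for Sdha, and the KO difference from -0.69 to 0.027 for Atp5l. The cause of these changes was not tested. All 9 called members stayed above 0 in each of the 24 alternatives, but the calls were not kept in all. Uqcr10 was still called in 20 of the 24, Ndufa12 in 17 and Cox8a in 14. Ndufs7 and Uqcrq were called in 12, Ndufa1 and Ndufs8 in 11, Ndufa8 in 10 and Atp5j2 in 8. Some of the alternatives leave 1 library in a group. A mean of 100 fragments or more lies behind 74 of the 85 entries, and counting noise limits the precision of the others most.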
